A study of Mus musculus with 2 samples.

Results

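Hair cells turn sound into transmitter release through 2 specialised structures, the hair bundle at the top of the cell and the ribbon synapse at its base, and 32 genes of these structures were read here in mouse cells, labelled as cochlear, after noise. The genes were chosen by symbol from what their proteins are known to do, and all 32 were found among the 32285 genes of both count matrices. They comprised 6 genes of the mechanotransduction complex, 4 of the tip-link anchor and its motors, 6 of the actin core, 5 of bundle links and surface proteins, 5 of the ribbon synapse, 2 of the efferent receptor, 2 associated with outer hair cells and 2 transcription factors. The mice, of strain C57BL/6J, were 4 to 6 weeks old, and the cells came from cochlear sensory epithelium. All ears were exposed to noise, an octave band from 8 to 16 kHz at 105 dB that lasted 2 hours, and the tissue was taken 2 days afterwards, so no unexposed ear was measured. The labels give n = 5 for each group, read here as 5 pooled ears. One library pools 5 ears that had been treated with 90 mg/ml of a drug ahead of the exposure (the drug library), and the other 5 untreated opposite ears of the same animals (the noise-only library). The series title shortens the drug to VPA and the labels do not spell out the name. Its route is not stated, so whether any reached the opposite ears is not known. Each group was dissociated with trypsin and captured as 1 pooled library of 10x Genomics 3′ v3.1 chemistry, so nothing measures the spread between ears and no test between groups was possible. All intervals below are exact 95% intervals that cover counting error only.

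The hair bundle is a staircase of actin-filled stereocilia joined by extracellular links. Tension on the tip link opens a cation channel at the stereocilium tip, and the resulting depolarisation opens calcium channels at the base. There a presynaptic ribbon tethers vesicles whose glutamate release, which depends on otoferlin, drives the auditory nerve fibres. In the cochlea, inner hair cells carry most of the afferent signal, while outer hair cells amplify sound with the membrane motor prestin and receive cholinergic efferent fibres.

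After filtering, 16618 noise-only and 17536 drug cells were kept, with medians of 1128 and 1128.5 UMIs (counted transcript molecules) per cell and totals of 33790872 and 30725156 UMIs. A hair cell was a cell with at least 1 UMI of at least 2 of Otof, Pou4f3, Myo7a and Tmc1. By this rule 80 noise-only cells (0.481%, 0.382 to 0.599) and 130 drug cells (0.741%, 0.620 to 0.880) were hair cells. Of the noise-only hair cells, 30 held UMIs of exactly 2 rule genes, 41 of 3 and 9 of all 4, against 67, 48 and 15 of the drug hair cells. Hair cells were deeper than the other cells, with medians of 2602.5 UMIs (noise-only) and 1957 UMIs (drug) against 1121 and 1121.5. Unsupervised clustering gave 1 hair cell-like cluster, with 106 noise-only and 154 drug cells, which held 79 of the 80 noise-only and 119 of the 130 drug hair cells. The 11 drug cells outside it held 27.7% of the drug hair cell UMIs. Their summed neuron markers stood at 7621 CPM (UMIs per 1000000 of the cells' sum) against 723 CPM in the drug cells inside it, and their osteoblast markers at 5126 against 1638 CPM. The main results between the libraries over all hair cells are therefore given with and without the cells outside the cluster. Those for subsets of the hair cells include these cells.

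The label was checked against marker genes that are not members. Of 10 other hair cell markers, all 10 had UMIs in the hair cells of both libraries, and 7 of the 9 measured were at least 10-fold higher there than in other cells. The main outer hair cell member went against a label of outer hair cells. Slc26a5, which encodes prestin, the motor of outer hair cells, had 0 UMIs in the hair cells of both libraries, which, at 3 UMIs as the limit a count of 0 allows for counting error, leaves up to 10.3 CPM in the noise-only and 8.00 CPM in the drug hair cells, and up to 3.75% and 2.31% of cells with a UMI. Over all barcodes, filtered or not, Slc26a5 had 1 noise-only UMI and 0 drug UMIs. Kcna10, a potassium channel listed here with vestibular hair cell markers, stood at 522 CPM in noise-only and 448 CPM in drug hair cells, against 1.91 and 2.90 CPM in other cells. The other 2 genes of that short list separated the hair cells less, with Anxa4 at 61.8 and 48.0 CPM against 23.7 and 22.1 CPM, and Spp1 at 2168 and 3046 CPM against 2045 and 2961 CPM. A list of 14 motile cilium genes, chosen after the values were seen, summed to 1429 CPM in noise-only and 1385 CPM in drug hair cells against 19.7 and 35.4 CPM in other cells. The cells are therefore called hair cells by the rule, with no subtype implied, and whether vestibular hair cells are among them was not tested. This bears on every hair cell value and on the inner and outer split.

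Most members were concentrated in hair cells in both libraries. CPM was at least 10-fold higher in hair cells than in other cells for 22 of the 31 members measured in the noise-only library, where 3.07% of all genes measured were as high. The drug library gave 21 of 30, against 2.76% of genes. None of the members was at least 10-fold lower, where 1.82% and 1.34% of genes were. A gene counted as measured with 20 UMIs in the 2 sums together. The median member stood at log2 ratios of 4.84 (noise-only) and 5.33 (drug), beside 0.20 and 0.17 for all genes measured. Scaling by TMM factors shifted every such log2 ratio by -0.22 and -0.21. For the 4 rule genes the cells were chosen by the remaining 3 genes, so that no gene set its own ratio. Slc26a5 was below the minimum in both libraries, and Ush1g in the drug library.

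**Figure D1:**
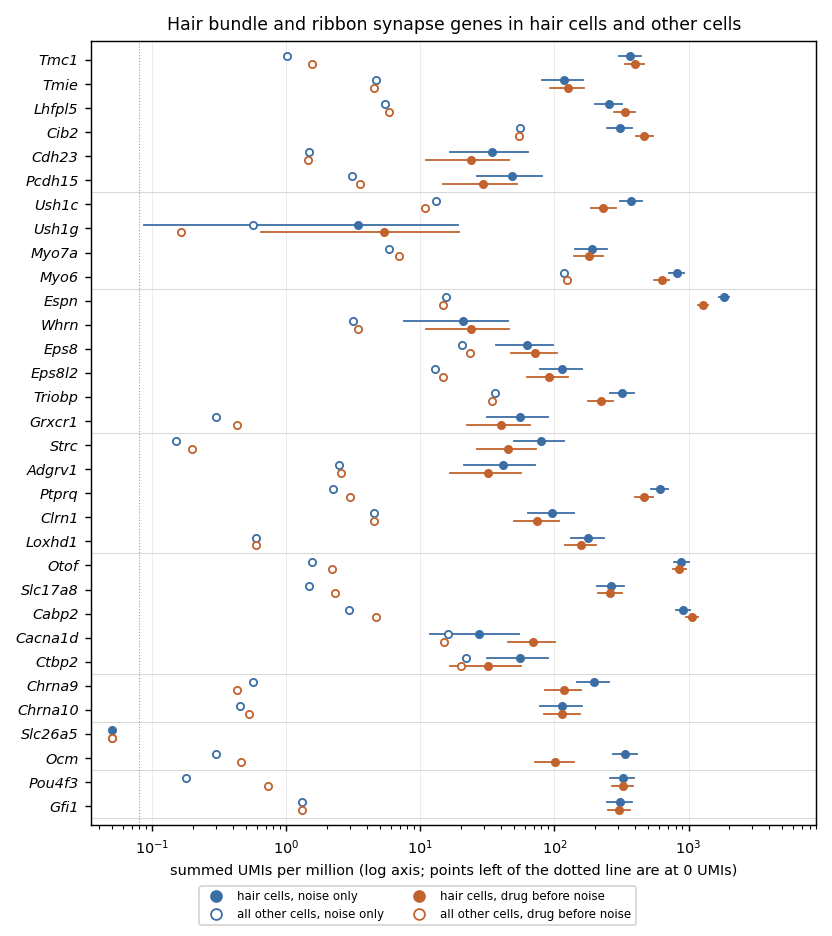
Levels of the 32 members as summed CPM, on a log axis, in hair cells (filled points, with 95% counting intervals) and all other cells (open points) of the noise-only library (blue) and the drug library (orange), grouped by role with grey lines. Espn was highest in hair cells at 1828 and 1280 CPM, Slc26a5 was at 0 UMIs in the hair cells of both libraries, and the open and filled points came closest for Cacna1d, Ctbp2 and Eps8.

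Genes of the transduction complex differed in how far they were concentrated in hair cells. Tmc1, a pore-forming subunit of the transduction channel and a rule gene, stood at 368 CPM in noise-only hair cells and 397 CPM in drug hair cells, against 1.01 and 1.55 CPM in other cells. In cells chosen by the other 3 rule genes it was 166-fold (118 to 235) and 110-fold (82.4 to 147) above the rest. Tmie, a small protein needed for the channel, was 25.1-fold (16.8 to 36.5) and 28.0-fold (19.6 to 39.3) higher in hair cells, and Lhfpl5, a tetraspan partner of the tip link, 46.8-fold (35.2 to 61.6) and 57.2-fold (45.1 to 72.3). Cib2, a calcium-binding partner of the channel, stood at 306 and 470 CPM in hair cells but at 55.0 and 54.1 CPM in other cells, which gives 5.56-fold (4.45 to 6.89) and 8.67-fold (7.38 to 10.1). The tip-link cadherins Cdh23 and Pcdh15, which form the upper and lower part of the link, had few UMIs. Cdh23 had 10 UMIs in noise-only and 9 in drug hair cells, at 23.5-fold (10.6 to 46.9) and 16.6-fold (7.11 to 34.4), and Pcdh15 14 and 11 UMIs, at 15.6-fold (8.26 to 27.5) and 8.32-fold (4.03 to 15.5).

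In the anchor and motor group, Myo7a, the myosin that tensions the tip link and a rule gene, was 28.4-fold (20.2 to 39.3) higher in noise-only and 18.7-fold (13.2 to 26) higher in drug hair cells when these were chosen by the other rule genes. Ush1c, the harmonin scaffold, stood at 374 and 232 CPM in hair cells against 13.2 and 10.8 CPM elsewhere. Myo6, a minus-end directed myosin of the stereocilium base, was one of the most abundant members in hair cells, at 814 and 632 CPM, yet only 5.67% and 5.95% of its UMIs lay there, since other cells held it at 118 and 123 CPM. Ush1g, the scaffold that joins harmonin to the motor, was near the limit of detection, with 1 UMI in noise-only and 2 in drug hair cells.

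Espn, which encodes the actin bundler espin, had the highest level of any member. Its 532 UMIs in noise-only and 480 in drug hair cells gave 1828 and 1280 CPM, against 15.4 and 14.7 CPM elsewhere, and 98.8% of noise-only and 91.5% of drug hair cells had a UMI of it. After cells with fewer than 1000 UMIs were dropped and the rest thinned to 1000, those shares were 86.1% and 75.6%. Among the other cells kept, 9219 noise-only and 9747 drug cells, they were 0.933% and 1.07%. Macrophage-like cells, which should lack the gene, held a UMI of it in 0% and 1.52% after thinning. All macrophage-like cells, with those under 1000 UMIs included, had median depths of 1029 and 955 UMIs. Grxcr1, a regulator of stereocilium growth, was rare but hair cell-bound, with 16 and 15 UMIs in hair cells and 10 and 13 in all other cells. The remaining genes of the actin group were found widely, with Triobp, a bundler of the stereocilium rootlet, at 8.82-fold (7.06 to 10.9) and 6.51-fold (5.14 to 8.15), and Eps8l2, an actin-capping relative of Eps8, at 8.87-fold (6.03 to 12.6) and 6.19-fold (4.23 to 8.77). Eps8, the capping protein of the tips, reached 3.04-fold (1.79 to 4.84) and 3.08-fold (2.01 to 4.52), and Whrn, its scaffold partner, 6.51-fold (2.34 to 14.7) and 7.07-fold (3.15 to 14.0). Reads of a 3′ kit do not separate the isoforms of Triobp, which has forms used outside hair cells.

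Among the links and surface proteins, Ptprq, the phosphatase of the shaft connectors, was the most abundant, at 608 CPM in noise-only and 467 CPM in drug hair cells, 272-fold (206 to 361) and 156-fold (120 to 203) above other cells. Loxhd1, a stereocilium membrane protein, was 299-fold (176 to 529) and 265-fold (154 to 478) higher. Strc, which encodes stereocilin of the links between stereocilia tops, had 23 and 17 UMIs in hair cells and 5 and 6 in all other cells. Clrn1, a clarin of the bundle and synapse, was 21.2-fold (13.6 to 31.9) and 16.5-fold (10.6 to 25) higher. Adgrv1, the very large receptor of the ankle links, was 16.6-fold (8.27 to 30.6) and 12.5-fold (6.17 to 23.0) higher on 12 UMIs in each library.

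The ribbon synapse genes held both kinds of pattern. Cabp2, a calcium-binding regulator of the synaptic calcium channel, stood at 914 and 1067 CPM in hair cells against 2.96 and 4.65 CPM elsewhere, or 309-fold (245 to 394) and 230-fold (189 to 280). Otof, the otoferlin calcium sensor and a rule gene, stood at 886 and 851 CPM, and was 205-fold (163 to 259) and 126-fold (103 to 155) higher in cells chosen by the other rule genes. Slc17a8, the vesicular glutamate transporter VGLUT3, was 181-fold (125 to 264) and 113-fold (82.6 to 156) higher. Cacna1d, the pore of the synaptic calcium channel, and Ctbp2, whose locus also encodes the ribbon protein RIBEYE, were not concentrated in this way. Cacna1d had 8 UMIs in noise-only and 26 in drug hair cells, at 1.71-fold (0.735 to 3.40) and 4.62-fold (2.98 to 6.85). Ctbp2 had 16 and 12 UMIs, at 2.53-fold (1.44 to 4.14) and 1.60-fold (0.821 to 2.81), and only 2.15% and 1.94% of its UMIs lay in hair cells. RIBEYE shares its 3′ end with the widely used co-repressor CtBP2, so these counts do not separate the 2 products.

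Both subunits of the efferent acetylcholine receptor had most of their UMIs in hair cells. Chrna9 had 75% of its noise-only and 77.2% of its drug UMIs there, and Chrna10 68.8% and 72.9%. Most of their other UMIs lay in the hair cell-like cluster. Their ratios to other cells were 345-fold (202 to 615) and 274-fold (145 to 555) for Chrna9, and 253-fold (134 to 502) and 218-fold (120 to 414) for Chrna10. Both transcription factors that keep hair cells differentiated were similarly placed, with Gfi1 at 235-fold (162 to 346) and 231-fold (160 to 340) and the rule gene Pou4f3 at 282-fold (184 to 439) and 162-fold (115 to 229) in cells chosen by the other rule genes. A hair cell held UMIs of a median of 10.5 of the 28 members outside the rule in the noise-only library and of 8 in the drug library, against a median of 0 in other cells of both.

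Ocm, which encodes the calcium buffer oncomodulin and is usually strongest in outer hair cells, was held by few cells. It was found in 7 of 80 noise-only hair cells, with 27, 22, 17, 13, 10, 8 and 1 UMIs, and in 6 of 130 drug hair cells, with 18, 7, 4, 4, 3 and 2 UMIs. Summed, this was 337 CPM in noise-only and 101 CPM in drug hair cells against 0.299 and 0.461 CPM elsewhere. Of the Ocm-positive hair cells, 3 noise-only and 5 drug cells also held Slc17a8.

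Since most members shared one pattern, the sequence before a RefSeq transcript start is shown for Ocm, Strc, Chrna9 and Cabp2, whose noise-only ratios to other cells were over 300-fold, and for Slc26a5, which had no UMI in hair cells. RefSeq windows on GRCm38.p6 were found for 26 of the 32 members, and no entry was matched for Ush1g, Otof, Pou4f3, Loxhd1, Ptprq and Eps8. The 250 bases before the annotated start were searched on both strands for an E-box, CAGNTG, the class of motif bound by basic helix-loop-helix factors such as ATOH1, which drives hair cell formation. The printed stretches lie at chr19:4082238-4082487 (plus strand) for Cabp2, chr5:65966874-65967123 (plus) for Chrna9, chr2:121380941-121381190 (minus) for Strc, chr5:144050610-144050859 (minus) for Ocm and chr5:21865605-21865854 (minus) for Slc26a5. None of the 5 overlaps an exon of GENCODE M21. The Cabp2, Chrna9 and Strc stretches lie inside the extent of the gene in that annotation, downstream of its most 5′ start. They end 909, 32202 and 6227 bases from that start. The Ocm stretch lies upstream of the gene and ends at -23940 bases from its start, and the Slc26a5 stretch ends at -1. The stretches run 5′ to 3′ on the gene's strand, and capitals mark E-box letters.
Cabp2: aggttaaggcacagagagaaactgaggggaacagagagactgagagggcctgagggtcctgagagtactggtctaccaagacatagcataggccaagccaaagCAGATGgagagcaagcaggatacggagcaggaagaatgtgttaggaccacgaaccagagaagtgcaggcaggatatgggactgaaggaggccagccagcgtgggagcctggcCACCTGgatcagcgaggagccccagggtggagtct
Chrna9: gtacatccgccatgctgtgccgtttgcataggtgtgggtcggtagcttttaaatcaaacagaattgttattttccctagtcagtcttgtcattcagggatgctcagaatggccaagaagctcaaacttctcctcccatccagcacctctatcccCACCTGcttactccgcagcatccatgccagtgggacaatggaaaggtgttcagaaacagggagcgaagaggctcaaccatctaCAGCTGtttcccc
Strc: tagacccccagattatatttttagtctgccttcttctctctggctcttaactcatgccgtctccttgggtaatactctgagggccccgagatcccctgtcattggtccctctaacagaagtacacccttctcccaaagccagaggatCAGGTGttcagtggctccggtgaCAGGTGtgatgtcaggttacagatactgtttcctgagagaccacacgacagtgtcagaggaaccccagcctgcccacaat
Ocm: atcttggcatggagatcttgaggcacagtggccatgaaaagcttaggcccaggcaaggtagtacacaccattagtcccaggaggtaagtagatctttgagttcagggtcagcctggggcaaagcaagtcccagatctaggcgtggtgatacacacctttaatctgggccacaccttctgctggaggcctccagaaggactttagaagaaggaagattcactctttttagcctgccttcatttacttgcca
Slc26a5: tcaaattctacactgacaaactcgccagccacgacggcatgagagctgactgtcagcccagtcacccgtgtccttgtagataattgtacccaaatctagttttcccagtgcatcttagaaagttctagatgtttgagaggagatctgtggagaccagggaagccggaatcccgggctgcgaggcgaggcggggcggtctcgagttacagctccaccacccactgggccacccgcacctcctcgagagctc
Cabp2, Chrna9 and Strc each held 2 E-box matches in this stretch, and the Ocm and Slc26a5 stretches held 0. The windows of Tmc1 and Grxcr1 also held 0, and so did the other Cabp2 window. An E-box was present in 54.3% of the 35 member windows and in 44.8% of all 32851 RefSeq windows of the same length, so its letters are common everywhere. An RFX-type X-box stretch, GTTGCCAN, and a GFI1-type core, AAATC and GC with any 3 bases between, both searched on either strand, were found in 0 of the member windows, against 3.66% and 2.40% of all windows. With 35 member windows and motifs this rare, a count of 0 does not show fewer matches than in other windows.

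Outside hair cells, the members fell into different cell groups, and several met in a single cluster. Part of these UMIs lay in the hair cell-like cluster, in cells that did not meet the rule. That part was 73.7% of the noise-only and 84.6% of the drug UMIs outside hair cells for Chrna9. It was 86.7% and 87.5% for Chrna10 and 76.8% and 69.5% for Cabp2, but 0.380% and 0.487% for Cib2. Of the 31 members other than Slc26a5, 24 had their highest level in the hair cell-like cluster in both libraries, among clusters with at least 50 cells. The exceptions were Cacna1d, Cib2, Ctbp2, Eps8, Pcdh15, Ush1g and Whrn. Pcdh15 stood at 299 CPM in unnamed cluster 37 of the drug library, on 33 UMIs, against 45.7 CPM in the hair cell-like cluster. Cluster 37 had 44 noise-only cells and was not compared in that library. Eps8 reached 176 CPM in noise-only cluster 20 and 153 CPM in drug cluster 6, against 71.7 and 94.4 CPM. The share of all genes highest in the hair cell-like cluster was not computed. The marker list that named this cluster holds the members Otof, Ocm, Slc26a5, Slc17a8, Pou4f3, Myo7a and Tmc1. Adgrv1 stood at only 1.02 (noise-only) and 1.09 (drug) times the next cluster, and Ush1c at 1.07 in the drug library. Cabp2 stood at 417 and 202 times. Cluster 11, which the marker rules left unnamed and whose leading genes included Resp18, Nrsn2, Scrt2, Pou4f2 and Asic3, held 457 noise-only and 459 drug cells with median depths of 12680 and 9845 UMIs. All 8 neuron markers were detected at 2-fold or more above other cells there in both libraries.

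Cluster 11 held much of several members' UMIs outside hair cells. It had 16.5% of all noise-only and 14.1% of all drug UMIs outside hair cells, but 76.6% of the noise-only and 74.2% of the drug UMIs of Cib2 outside hair cells, 90.1% and 79.1% of those of Lhfpl5, 86.8% and 87.6% of those of Clrn1 and 65.3% and 68.2% of those of Cdh23. For Cacna1d the shares were 46.3% and 35.7%. In level, Cib2 stood at 257 CPM in cluster 11 and 250 CPM in the hair cell-like cluster of the noise-only library, and at 287 and 466 CPM in the drug library. The other 3 bundle genes were lower there than in the hair cell-like cluster, for example Lhfpl5 at 29.7 against 258 CPM in the noise-only library and 32.4 against 447 CPM in the drug library. Tmc1, Otof, Slc17a8 and Cabp2 were at most 5.98 CPM in cluster 11 in both libraries. Ush1c outside hair cells lay mainly in cluster 26 and in organ of Corti supporting cell-like cluster 7. Cluster 26 met the same marker rule, but its leading genes (Tectb, Tecta, Otol1, Otog and Hmx3 among them) include Otol1 and Hmx3, known from vestibular epithelium, so it is given by number. Ush1c stood at 266 CPM in noise-only and 276 CPM in drug cells of cluster 26 and 140 and 90.3 CPM in cluster 7. Adgrv1 reached 39.3 and 36.3 CPM in oligodendrocyte-like cells, close to the 40.1 and 39.6 CPM of the hair cell-like cluster. Cacna1d was highest in strial marginal-like cells, at 95.9 and 83.4 CPM, and Ctbp2 in endothelial-like cells, at 63.5 and 65.3 CPM.

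**Figure D2:**
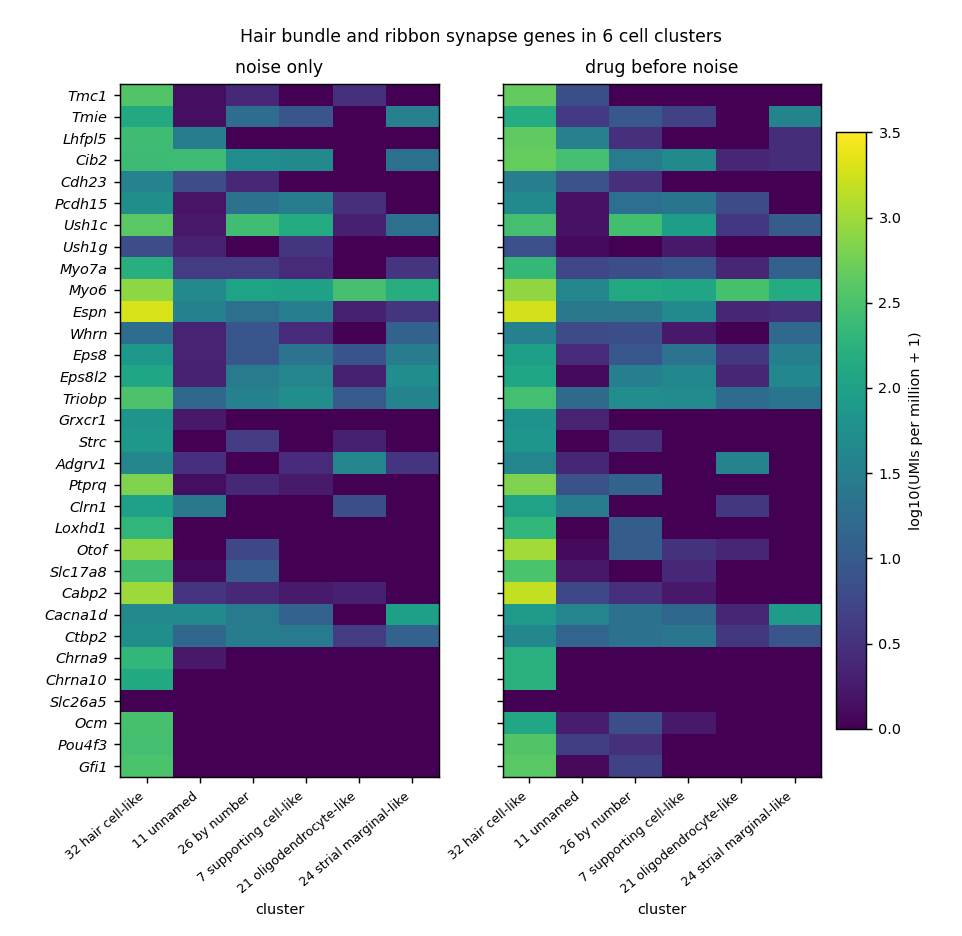
Level of each member, as log10 of CPM plus 1 (colour), in 6 clusters (columns) of the noise-only library (left) and the drug library (right). The hair cell-like cluster is filled for all members but Slc26a5, Cib2 also reaches 257 and 287 CPM in unnamed cluster 11, and Ush1c is bright in cluster 26 (266 and 276 CPM).

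Other genes of the same structures were read in the same way, against the 3.07% and 2.76% of all genes at least 10-fold higher. Of 24 further hair bundle genes, 14 of the 20 measured in the noise-only and 15 of the 21 measured in the drug library were at least 10-fold higher in hair cells. The 4 with most UMIs were Cib3, a relative of Cib2, at 1000 and 675 CPM, the actin-associated Xirp2 at 835 and 670 CPM, Elmod1 at 663 and 590 CPM and the actin bundler Pls1 at 409 and 365 CPM. Of 16 further presynaptic and basolateral genes, all measured, 1 in each library passed this fold. Their 4 most abundant were the calcium pump Atp2b2 at 608 and 488 CPM, 8.18-fold (6.98 to 9.53) and 7.86-fold (6.72 to 9.16) above other cells, Rab3a at 175 and 272 CPM, Kcnma1 at 110 and 120 CPM, and Cplx1 at 34.4 and 152 CPM.

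Inner and outer cells were compared by splitting hair cells on 7 inner and 7 outer hair cell markers, none of them members. The markers were not confined to hair cells. The inner list summed to 763 CPM in noise-only and 1843 CPM in drug hair cells, against 755 and 567 CPM in other cells. The outer list summed to 591 and 547 CPM, against 242 and 248 CPM. Of 6 inner markers measured, 1 in the noise-only and 2 in the drug library were at least 10-fold higher in hair cells. Of 7 outer markers, 1 and 0 were, against 3.07% and 2.76% of all genes. A cell with more inner markers detected was put on the inner side and one with more outer markers on the outer side. This gave 27 inner-side and 26 outer-side cells in the noise-only library and 67 and 36 in the drug library, with 27 ties in each. The split was thin, since 24 noise-only and 54 drug cells were placed by a margin of 1 marker, and prestin was not detected on either side. It is a split by markers, not a pair of cell types. In both libraries summed, 5 of the 28 members measured were at least 2-fold higher on the inner side, where 4.95% of all genes measured were as high. None was at least 2-fold higher on the outer side, where 5.2% of genes were. No test was run on these sums, which hold 1 library per group.

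Slc17a8, the glutamate transporter that marks inner hair cells, stood at 453 CPM on the inner and 152 CPM on the outer side in the noise-only library (ratio 2.99, 1.68 to 5.57) and at 408 and 84.1 CPM in the drug library (4.85, 2.42 to 11). Cib2 stood at 554 and 143 CPM (3.88, 2.19 to 7.26) and at 689 and 318 CPM (2.17, 1.47 to 3.27). These 2 genes were at least 2-fold higher on the inner side in each library. By library, 4 of 21 members measured passed that fold on the inner side of the noise-only split, where 7.13% of genes did, and 5 of 23 in the drug split, where 6.63% did. None passed it on the outer side, where 7.98% and 6.46% of genes did. Otof was higher on the inner side by 2.29 (1.69 to 3.14) and 1.86 (1.40 to 2.50). Lhfpl5 differed between the libraries, at 1.40 (0.800 to 2.47) in the noise-only and 3.66 (2.07 to 6.98) in the drug library, and Grxcr1 reached 3.71 (1.23 to 15.0) in the sum on 19 and 4 UMIs. Espn, the most abundant member, stood at 0.912 (0.786 to 1.06) in the sum. Of the 21 members measured in each library, 12 were higher on the inner side in both, 2 on the outer side in both and 7 on opposite sides. These directions carry no minimum fold, and the share of all genes with each direction in both libraries was not computed. Ocm, an outer hair cell gene by background knowledge, gave a noise-only ratio of 0.803 (0.494 to 1.29), with 32 UMIs on the inner and 45 on the outer side, and in the drug library 32 UMIs lay on the inner side and 0 on the outer. When the cells were split by the members Slc17a8 against Slc26a5 plus Ocm, 80 cells stood against 11, and the log2 ratios of Cib2, Lhfpl5 and Otof turned to -2.37, -1.20 and -0.77. That split is made from members, and with Slc26a5 at 0 its outer side is the cells with more Ocm than Slc17a8 UMIs. Erythroid markers moved with the split, at 11005 CPM on the inner and 134 CPM on the outer side of the noise-only library and 11266 and 280 CPM in the drug library. Neuron markers stood at 2104 on the inner and 687 CPM on the outer side of the noise-only library, and at 2105 and 3364 CPM in the drug library. Organ of Corti supporting cell markers stood at 554 and 1516 CPM and at 948 and 495 CPM. The 3 vestibular hair cell markers stood at 1963 and 3352 CPM and at 1946 and 6990 CPM. Spp1, which was about as high in other cells, made up most of that list's hair cell sum. In the drug library osteoblast markers stood at 2447 and 18.7 CPM and macrophage markers at 491 and 28 CPM. Their part in the result was not tested.

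**Figure D3:**
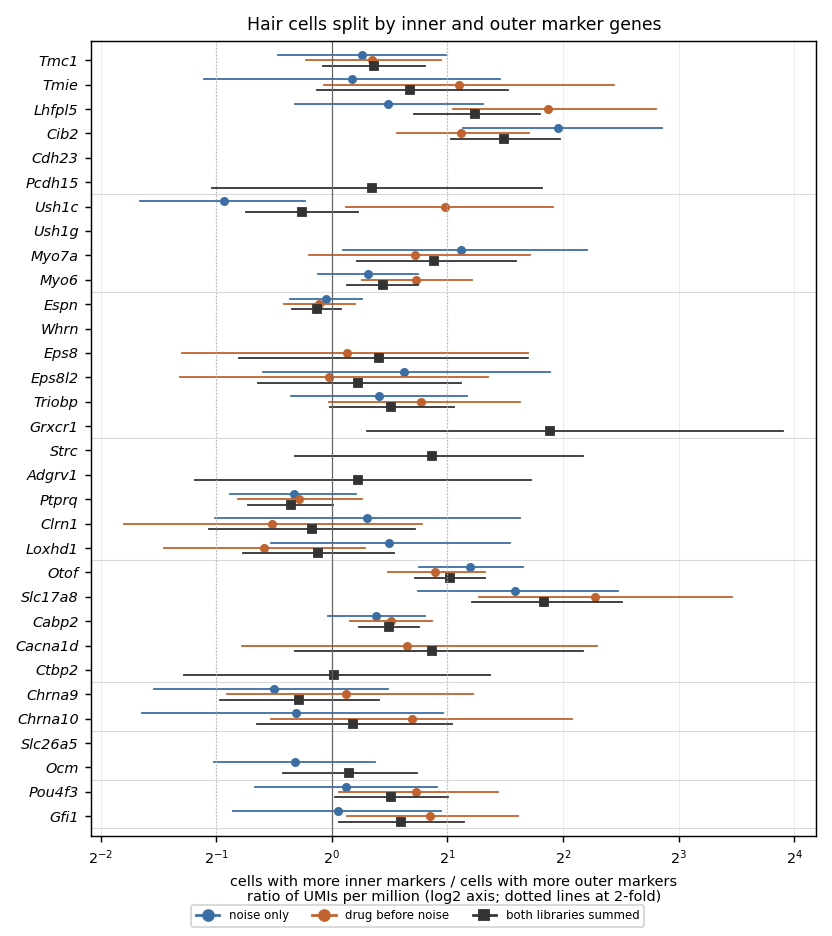
Ratio of CPM between hair cells with more inner markers and hair cells with more outer markers, on a log2 axis, for members with 20 UMIs in the 2 sums, in the noise-only library (blue), the drug library (orange) and both summed (black squares), with 95% counting intervals. Slc17a8 (2.99 and 4.85) and Cib2 (3.88 and 2.17) lie beyond the 2-fold line in both libraries, and Ush1c lies on opposite sides of 1 (0.524 and 1.97); an infinite ratio has no point.

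Between the libraries, most members, like most of all genes measured, differed by less than 1.5-fold in hair cells. Over all hair cells by the rule, 2 of the 28 members measured were at least 1.5-fold higher in the drug library and 6 at least 1.5-fold lower, where 12.7% of all genes measured were as high and 15.3% as low. The median member stood at a log2 ratio of -0.25 beside -0.05 for all genes measured. In the cells of the hair cell-like cluster alone, a comparison chosen after the data were seen, 4 of 28 were higher and 1 lower, against 10% and 13.8% of genes, and the median was 0.12. The sign of the median thus changed without the 11 drug cells and 1 noise-only cell outside the cluster. Those 11 drug cells held the members at a summed 1195 CPM, against 10853 CPM in the drug cells inside, and 27.7% of the drug hair cell UMIs. Without the cells outside the cluster the drug total fell from 374862 to 271071 UMIs, and the noise-only total from 291080 to 277574. These totals divide every gene, so their change raised all ratios by the same factor. Changes in a gene's own UMIs came on top. Of the members' drug UMIs, 2942 lay inside the cluster and 124 outside. What else set the ratios of single members was not tested.

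Within the inner side, 3 of 23 members were at least 1.5-fold higher in the drug library and 4 lower, where 12.6% and 14.3% of genes were. Within the outer side the counts were 1 and 8 of 21, where 20.3% and 20.2% of genes were. Both sides include cells outside the hair cell-like cluster. Inside it lay 64 of the 67 inner-side and 32 of the 36 outer-side drug cells, against 26 of 27 and 26 of 26 noise-only cells.

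Cib2 and Cacna1d were the 2 members at least 1.5-fold higher in the drug hair cells. On GRCm38 with GENCODE M21, Cib2 lies on the minus strand at chr9:54544794-54560218 and Cacna1d on the minus strand at chr14:30039939-30491455; both are protein-coding. Cib2 stood at 306 CPM in noise-only and 470 CPM in drug hair cells, a ratio of 1.54 (1.18 to 2.00), and 1.86 (1.40 to 2.47) inside the cluster. In all other cells it stood at 55.0 and 54.1 CPM. A UMI of Cib2 was found in 25 of 80 noise-only and 42 of 130 drug hair cells, or 31.3% and 32.3%. The largest contribution from 1 cell was 23 of the 89 noise-only UMIs and 21 of the 176 drug UMIs. Inside the cluster there were 80 noise-only and 145 drug UMIs. The Cib2 intervals thus understate the uncertainty from cell to cell. Cacna1d stood at 27.5 and 69.4 CPM, a ratio of 2.52 (1.11 to 6.45) on 8 and 26 UMIs, and 2.82 (1.21 to 7.31) inside the cluster. Inside the cluster Lhfpl5 at 1.70 (1.27 to 2.30) and Cabp2 at 1.54 (1.31 to 1.80) also passed 1.5-fold. Cabp2 stood at 958 and 1472 CPM there, against 1.17 (0.997 to 1.37) over all hair cells.

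Ocm, a protein-coding gene at chr5:144019804-144026670 on the minus strand, was the member furthest below 1, at 0.301 (0.201 to 0.442) over all hair cells and 0.397 (0.266 to 0.583) inside the cluster. It rested on the 7 noise-only and 6 drug cells described above, so that its interval understates the uncertainty from cell to cell. The other 5 members at least 1.5-fold lower over all hair cells came closer to 1 inside the cluster, where the change of totals raises all ratios alike. Ush1c stood at 374 and 232 CPM, a ratio of 0.620 (0.462 to 0.829), against 0.770 (0.571 to 1.03) inside. Chrna9 stood at 196 and 117 CPM, a ratio of 0.599 (0.395 to 0.904), against 0.772 (0.508 to 1.17) inside. Strc had 23 and 17 UMIs (0.574, 0.288 to 1.12), Ctbp2 16 and 12 (0.582, 0.252 to 1.31) and Pcdh15 14 and 11 (0.610, 0.251 to 1.45), with intervals that include 1. Espn stood at 1828 and 1280 CPM, a ratio of 0.701 (0.618 to 0.794), against 0.91 (0.803 to 1.03) inside.

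Several other members of the channel, synapse and transcription factor groups differed by less than 1.5-fold. Otof had a ratio of 0.960 (0.812 to 1.14) over all hair cells and 1.24 (1.05 to 1.47) inside the cluster, and Slc17a8 0.988 (0.726 to 1.35) and 1.28 (0.936 to 1.75). Tmc1 stood at 1.08 (0.838 to 1.40) and 1.30 (1.0 to 1.70). Pou4f3 stood at 1.01 (0.764 to 1.33) and 1.20 (0.902 to 1.60), and Gfi1 at 0.984 (0.739 to 1.31) and 1.29 (0.966 to 1.72). The upper ends of these intervals reach 1.75 for Slc17a8 inside the cluster, so they do not show that the levels were equal. Otof, Pou4f3, Tmc1 and Myo7a chose the cells, so their own ratios are a description. Ratios under 1 over all hair cells that came nearer 1 inside the cluster were found for the rootlet bundler Triobp, at 0.693 (0.509 to 0.942) and 0.859 (0.627 to 1.17), for Ptprq, at 0.768 (0.619 to 0.952) and 0.995 (0.802 to 1.23), and for Myo6, at 0.776 (0.646 to 0.934) and 0.981 (0.814 to 1.18). The change of totals given above is part of each of these shifts. Chrna10 stood at 1.01 (0.628 to 1.64) and 1.33 (0.828 to 2.17), beside its partner Chrna9 described above. Over all hair cells the other members measured, Tmie, Myo7a, Eps8, Eps8l2, Loxhd1, Clrn1, Adgrv1 and Grxcr1, lay between 0.728 for Grxcr1 and 1.16 for Eps8. Cdh23, Ush1g, Whrn and Slc26a5 had too few UMIs to be measured. Among the further bundle genes 0 of 18 were at least 1.5-fold higher and 5 lower over all hair cells, and 2 higher and 1 lower inside the cluster. Of 9 further synaptic and basolateral genes measured, 3 were higher and 0 lower, and inside the cluster 0 of 7 passed in either direction.

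**Figure D4:**
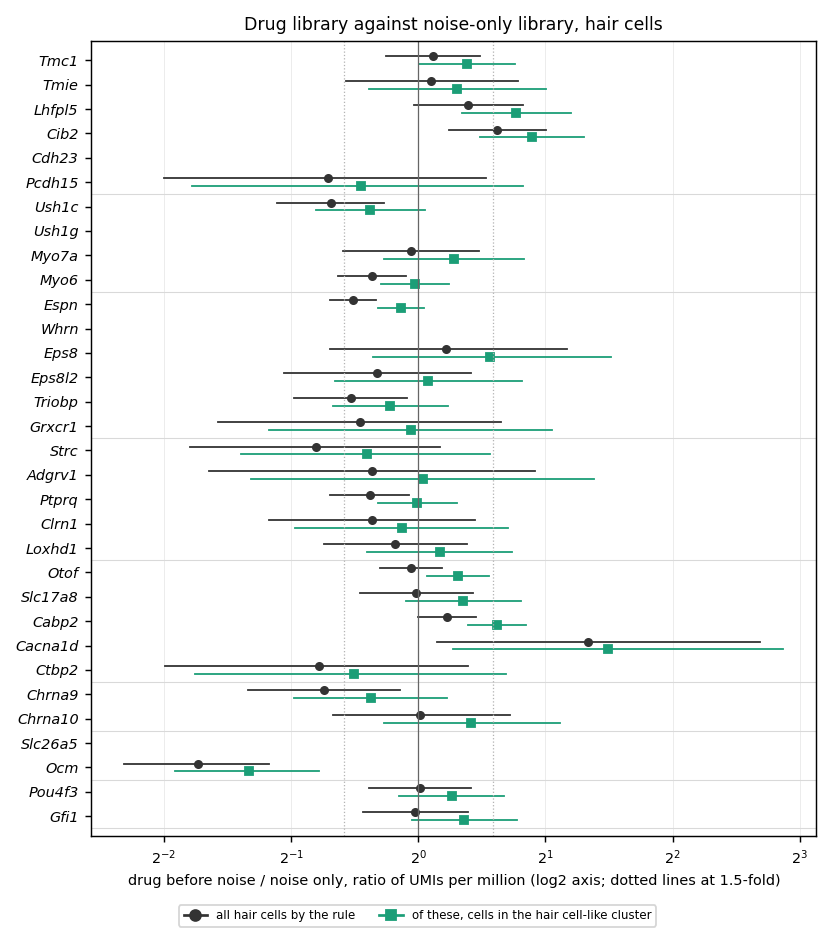
Ratio of CPM in drug over noise-only hair cells, on a log2 axis with 95% counting intervals, for all hair cells by the rule (black circles) and for those inside the hair cell-like cluster (green squares). Ocm (0.301 and 0.397) lies furthest to the left and Cacna1d (2.52 and 2.82) furthest to the right, and the green squares lie to the right of the black circles for the members shown.

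Signals of other cells differed between the hair cells of the 2 libraries. Over all hair cells, summed fibrocyte or fibroblast markers stood at 182 CPM in the noise-only library (6 of 8 genes detected) and 2169 CPM in the drug library (8 of 8), osteoblast markers at 17.2 (4 of 6) and 2604 CPM (6 of 6), erythroid markers at 3872 (4 of 5) and 18964 CPM (5 of 5) and neuron markers at 1202 and 2633 CPM (7 of 8 in both). Schwann or satellite glia markers went the other way, at 4174 and 2372 CPM (8 of 8 in both). Inside the cluster the neuron sums were 746 and 723 CPM, while the fibrocyte and osteoblast sums still differed, at 187 and 2431 CPM and at 18 and 1638 CPM. So did the erythroid sums, at 4057 and 17280 CPM, the Schwann or satellite glia sums, at 4193 and 2228 CPM, and the macrophage sums, at 32.4 and 387 CPM. Their part in the ratios was not tested. In all other cells, 5 of 30 members measured were at least 1.5-fold higher and 1 lower in the drug library, against 5.84% and 3.7% of genes. Pou4f3 was among them, with 6 noise-only and 22 drug UMIs outside hair cells. In hair and other cells together, 3 of 31 members were at least 1.5-fold higher (Cabp2, Tmc1 and Pou4f3) and 2 lower (Ocm and Ush1g), against 5.8% and 3.57% of genes.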

How the data were processed

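Each deposited matrix gives whole-number UMI counts by gene and cell barcode, not normalized, which the authors made with Cell Ranger 5.0.1, per the file headers. Per the submitters' processing notes, which give no roles, the tools included Cell Ranger 5.0, STAR and Seurat 3.2.2, with builds GRCm38 and mm10. Which annotation release was used, and which filter made the barcode lists, is not stated. The lists held 18545 noise-only and 21773 drug barcodes with at least 500 UMIs; 111 sequences occur in both and were treated as separate cells.

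Cells needed 300 genes and 500 UMIs, which left 17667 and 20522, and at most 20% mitochondrial UMIs, which left 17423 and 20133. Scrublet in scanpy 1.11.5 (expected rate 0.08) marked 805 (4.62%) and 2597 (12.9%) as doublets, at a threshold it sets automatically, and these were removed. They included 6 (6.98%) noise-only and 33 (20.2%) drug barcodes that met the hair cell rule, and keeping them changed the sign of the median drug ratio. Both libraries were clustered together (3000 variable genes, 30 components, 15 neighbours, Leiden resolution 1). A cluster took a cell type name where at least 3 of its markers were 2-fold above other cells in 10% of its cells, at least 1 was among its 10 leading genes and no other type had more there. UMIs were summed over cell groups and divided by the group's total. Ratios have exact conditional binomial intervals and shares exact binomial intervals, at 95%; PCR and cell to cell spread are not in them. Log2 ratios add 0.5 UMI to each sum, and 3 UMIs is the limit a count of 0 allows. With 1 library per group no p-value was computed. All 32 members could be named, and of other lists the 4 genes with most hair cell UMIs; Kcna10, Anxa4 and Spp1 are markers used for the label. Members and lists were chosen with earlier results of these data known. Of the 32285 genes, 32235 were found in GENCODE M21, used for exon positions. Myo15a is listed as Myo15. The ratio step was tested on simulated data with known folds. TMM factors came from edgeR 4.0.16 in R 4.3.3; Python 3.11.15, numpy 2.4.6, scipy 1.17.1 and pandas 2.3.3 were used otherwise. Alternatives changed the doublet removal, hair cell rule, cell filter, scaling, averaging, UMI minimum, depth, top cell and the inner and outer split.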

Additional observations from a re-analysis of the deposited data

Results flagged for a closer look

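Lhfpl5 moved in opposite directions between the libraries on the inner and outer sides of the marker split, with a drug over noise-only ratio of 1.54 (1.01 to 2.40) on the inner side and 0.587 (0.282 to 1.17) on the outer side. Both ratios include cells outside the hair cell-like cluster, and the difference between the sides was not tested. Ocm stood at a ratio of 0.301 (0.201 to 0.442) in hair cells and 1.55 (0.638 to 3.89) in other cells, the latter on 10 noise-only and 14 drug UMIs; this difference was not tested either. Ush1c was lower on the inner than on the outer side in the noise-only library, at 0.524 (0.316 to 0.849), and higher in the drug library, at 1.97 (1.09 to 3.77), again untested. In the noise-only library 1 hair cell held 24 of the 109 hair cell UMIs of Ush1c. Among barcodes left out by the cell filters or as predicted doublets, 6 noise-only and 35 drug barcodes met the hair cell rule, and they held 20 and 110 UMIs of Otof and 0 of Slc26a5. With those marked as doublets kept, 86 noise-only and 163 drug hair cells remained.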

How the results depend on the processing

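No paired analysis was possible because each group is 1 library. The counts of members at least 10-fold higher in hair cells stayed within 1.5 times of the value given under every alternative run. The share of hair cells was 0.301% in the noise-only and 0.359% in the drug library with 3 rule genes, 1.54% and 2.24% among cells with at least 1000 genes, and 0.638% of noise-only cells by cluster. The counts of members at least 1.5-fold higher in the drug library were 5 with 3 rule genes, 4 by cluster and 4 by rule and cluster together (the last chosen after the data were seen), and 1 with a minimum of 50 UMIs and 1 after thinning. Those at least 1.5-fold lower were 1 with predicted doublets kept, 2 with 3 rule genes, 10 with at least 1000 genes, 1 by cluster, 1 by rule and cluster, 3 with a minimum of 50 UMIs and 2 after thinning. The median log2 ratio between the libraries was 0.33 with 3 rule genes and also changed sign with predicted doublets kept (0.07), by cluster (0.05), by rule and cluster (0.12) and after thinning (0.01). With 3 rule genes Strc reversed to 0.24 and Ush1c to 0.19. Inner-side counts were 3 by mean CPM, 1 after thinning, 3 without each gene's top cell, 2 split by members and 8 at a margin of 2 markers; outer-side counts were 1 with no minimum and 5 split by members, where Cib2 (-2.37), Lhfpl5 (-1.20), Otof (-0.77) and Slc17a8 (-0.52) reversed. That split uses Slc17a8 and Ocm themselves, so it is no independent check. The Ocm value follows from the split. Slc17a8 stood lower on the inner side, although that side takes the cells with more Slc17a8 than Ocm UMIs. The cause was not tested. Of the members, 11 kept their direction between the libraries in all settings that measured them: Ocm, Cib2, Cacna1d, Chrna9, Cabp2, Ctbp2, Espn, Grxcr1, Pcdh15, Ptprq and Triobp. Ctbp2, Grxcr1 and Pcdh15 were measured in 10 settings, Cacna1d in 11 and the others in 13. Some log2 ratios came close to no difference, at -0.004 for Ptprq, 0.02 for Cabp2, -0.05 for Grxcr1 and -0.08 for Espn. The settings reuse the same libraries, and the share of all genes that kept direction was not computed. Depth limits Ush1g, Whrn, Cdh23 and Slc26a5 most, at 3 UMIs or 10.3 and 8.00 CPM for a count of 0.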
